A study of Homo sapiens with 6 samples.

Results

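The 44 genes described here code for the proteins that take a cell out of G1 and copy its DNA in S phase. They were taken by symbol from a list of such genes, after versioned Ensembl gene IDs had been matched to symbols, and all 44 were found among 62703 gene IDs, each under a single ID. All 44 passed the filter on low counts and were among the 16929 genes tested. RNA came from SEM cells, a human line established from B-lineage acute lymphoblastic leukaemia that has the KMT2A::AFF1 fusion. In the knock-down group (KD, 3 libraries) the cells had received a pair of Dicer-substrate siRNAs placed on the back-splice junction of AK_8_2, a circular transcript of that fusion. In the negative control group (NC, 3 libraries) they had received a commercial non-targeting duplex of the same kind. Both groups went through a reverse lipid transfection and a forward one 24 h later, and the design describes the replicates as independent. All libraries come from 1 cell line that carries the fusion in both groups, and a gene count does not tell a circular RNA from its linear host, so how far AK_8_2 was silenced was not measured here.

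Before S phase, the origin recognition complex, CDC6 and CDT1 load the ring-shaped MCM helicase onto origins of replication, a step called licensing. Cyclin E with its kinase CDK2, and the E2F transcription factors that are set free when RB-family proteins are phosphorylated, then turn on many of the genes for replication, and CDC45 and the GINS complex join MCM to form the active helicase. Polymerases, the PCNA clamp and its loader, the enzymes of nucleotide supply and the factors that put histones on new DNA complete the process, which leukaemia lines in culture run continuously. The question put to these genes is whether their transcripts differ between cells transfected against AK_8_2 and control cells.

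E2F binding to a short core sequence near the transcript start is the best known feature that promoters of such genes share. RefSeq promoter windows (GRCh38.p14, 250 bases before to 50 after a transcript start) were at hand for 39 of the 44 genes, 50 windows in all, some of which overlap. An E2F core, taken as the letters TTCCCGC or the close form TTCGCGC or the form TTGGCGC or else the form TTGCCGC on either strand, was in 36 of the 50 windows (72.0%), against 4553 of all 35116 windows (13.0%). A pair or more of matches was in 32.0% of the members' windows, against 1.77% of all windows. Overlapping matches were counted separately in both, as in ORC1, with match centres at -19 and -16 bases from the start. By gene, 33 of 39 had a match, and the windows of ORC6, MCM10, CDC45, CCNE1, FEN1 and SLBP held none of these letters. The CCAAT box, the short element bound by NF-Y and searched as CCAAT on both strands, was in 62.0% of the members' windows and 34.6% of all windows. Both elements together were in 48.0%, against 4.45%, and 10 of the 57 E2F core matches overlapped a CCAAT match. MCM4, MCM5, GINS4, CCNE2 and E2F8 had no window to search.

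Of the members whose levels are given in full below, CCNE1, CDC45 and FEN1 had no match, and 1 window each is printed for 5 with matches. MCM7 has 3 windows, with 3, 2 and 0 matches, and the window with 3 is printed. The printed windows show arrangements from 3 matches to a single one at the start. Each runs from 250 bases before the start to 20 bases after it, on the gene's own strand, with the letters of E2F cores in capitals.
MCM7 (chr7:100101378-100101647, minus strand): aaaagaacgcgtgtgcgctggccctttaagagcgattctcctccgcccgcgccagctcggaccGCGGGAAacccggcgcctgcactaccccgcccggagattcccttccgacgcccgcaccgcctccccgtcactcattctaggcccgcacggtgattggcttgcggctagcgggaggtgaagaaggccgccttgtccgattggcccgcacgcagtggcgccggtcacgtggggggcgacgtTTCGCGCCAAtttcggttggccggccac
CDT1 (chr16:88803539-88803808, plus strand): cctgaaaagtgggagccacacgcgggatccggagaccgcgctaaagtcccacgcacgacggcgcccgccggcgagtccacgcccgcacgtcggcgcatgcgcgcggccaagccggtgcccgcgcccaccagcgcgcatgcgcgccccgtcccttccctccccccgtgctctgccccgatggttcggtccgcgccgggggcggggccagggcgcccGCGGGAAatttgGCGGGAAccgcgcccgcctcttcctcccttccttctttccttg
E2F1 (chr20:33686366-33686635, minus strand): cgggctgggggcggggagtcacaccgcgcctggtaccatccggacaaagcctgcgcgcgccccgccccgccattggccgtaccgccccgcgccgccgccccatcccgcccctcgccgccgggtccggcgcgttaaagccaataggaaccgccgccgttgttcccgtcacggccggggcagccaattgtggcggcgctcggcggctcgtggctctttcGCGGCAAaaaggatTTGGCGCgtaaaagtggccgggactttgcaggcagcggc
POLE (chr12:132687323-132687592, minus strand): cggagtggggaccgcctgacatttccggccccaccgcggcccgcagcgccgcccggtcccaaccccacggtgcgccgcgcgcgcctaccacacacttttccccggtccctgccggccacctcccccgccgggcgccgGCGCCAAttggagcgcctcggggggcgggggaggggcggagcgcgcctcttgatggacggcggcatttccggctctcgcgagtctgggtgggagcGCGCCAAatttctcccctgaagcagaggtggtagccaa
CHAF1B (chr21:36385142-36385411, plus strand): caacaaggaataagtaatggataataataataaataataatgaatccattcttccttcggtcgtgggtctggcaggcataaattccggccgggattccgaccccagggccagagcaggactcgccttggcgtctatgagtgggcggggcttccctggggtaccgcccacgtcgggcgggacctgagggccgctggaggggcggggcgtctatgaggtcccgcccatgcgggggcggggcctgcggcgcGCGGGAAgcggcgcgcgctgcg
In MCM7, the run of capitals next to the start is a pair of overlapping matches, and a further match lies 187 bases before the start. CDT1 and E2F1 each hold a closely spaced pair, beginning 35 and 33 bases before the start. POLE has a match 113 bases before the start and another near it, and CHAF1B has 1 match that begins 2 bases before the start. A match describes the letters only and does not show that a factor binds there.

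**Figure D1:**
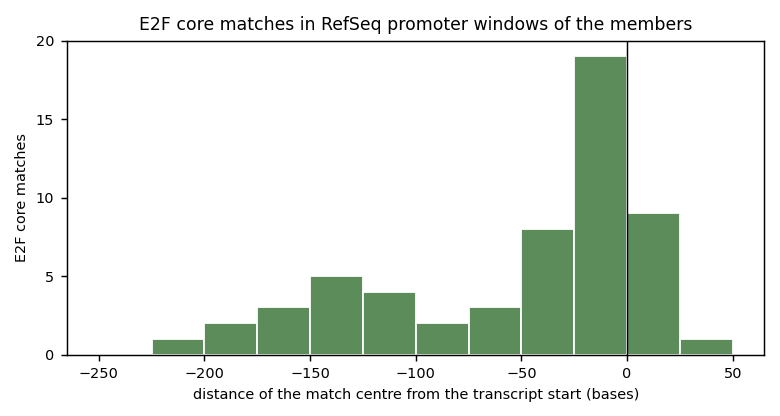
Number of E2F core matches (y axis) by distance of the match centre from the transcript start in bases (x axis) in the 50 RefSeq promoter windows of the genes, in bins of equal width. Of 57 matches, with overlapping ones counted separately, 42 lie within 100 bases of the start.

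Counts in genes came to 16531673, 26694160 and 21186216 for the KD libraries, replicates 1 to 3, and to 14750579, 24186646 and 23453412 for the NC libraries, replicates 1 to 3. The replicate 1 libraries stood apart in both groups. They had 50.03% (KD) and 48.6% (NC) of their records outside any annotated feature, where the remaining 4 libraries had 11.3% to 17.3%, and the first principal component (78.8% of the variance) separated them from the rest. In KD replicate 3, reads with several alignments made up 31.5% of the records, against 4.70% to 17.3% in the others. The label of the line was borne out by its markers: 6 of 10 B-cell precursor markers were above 10 CPM (counts scaled to a common library size with TMM factors) in every library, among them PAX5, as were all 5 markers of KMT2A-rearranged leukaemia, while DNTT was at most 1.74 CPM and RAG1 at most 3.92 CPM. Summed T-cell markers were at 0.118 to 8.73 CPM in KD and 0.219 to 10.8 CPM in NC, and summed erythroid markers at 0.0525 to 2.53 CPM in KD and 0 to 1.99 CPM in NC, both highest in replicate 1 of either group. Summed stromal and epithelial markers were at 4.87 to 23.8 CPM in KD and 3.65 to 23.2 CPM in NC, again highest in replicate 1, and summed myeloid markers at 23.4 to 28.7 CPM in KD and 21.4 to 29.1 CPM in NC. CSF1R made up most of the myeloid sum in replicates 2 and 3 of both groups, and in replicate 1 it was 11.2 of 23.4 CPM in KD and 10.6 of 21.4 CPM in NC. MPO was at 4.39 CPM in KD replicate 1 and 3.30 CPM in NC replicate 1, against at most 0.743 CPM in the other libraries, and the part of these off-lineage transcripts in the results was not tested.

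SEM cells expressed the replication genes strongly. On the scale of TPM, which divides by exon length, 23 of the 44 stood in the top 10% of the 16259 tested genes that had a length, and the median member had a mean of 75.8 TPM over the 6 libraries. PCNA, the sliding clamp that holds polymerases on DNA, had the highest level, at 472 ± 46.0 TPM in KD and 506 ± 24.4 TPM in NC (SD, n = 3 each). Next came MCM7, at 440 ± 50.9 TPM in KD and 443 ± 48.3 TPM in NC, and UHRF1, which brings the maintenance DNA methyltransferase to newly copied DNA, at 391 ± 17.7 TPM in KD and 406 ± 21.2 TPM in NC. TYMS, the thymidylate synthase, was close behind UHRF1, with means of 396 TPM and 399 TPM over all 6 libraries, and above it in 3 of the 6. The order of these 4 varied between libraries, and it also changed with the length used, since over the principal transcript MCM7 averaged 447 TPM, UHRF1 434 TPM, TYMS 402 TPM and PCNA 362 TPM. The lowest level was that of CCNE1 (cyclin E1), at 4.60 ± 0.868 TPM in KD and 5.53 ± 1.63 TPM in NC. POLA2, the B subunit of polymerase alpha, had 12.3 ± 0.608 TPM in KD and 13.6 ± 0.900 TPM in NC, and CCNE2 (cyclin E2) had 19.4 ± 3.36 TPM in KD and 20.2 ± 1.10 TPM in NC.

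**Figure D2:**
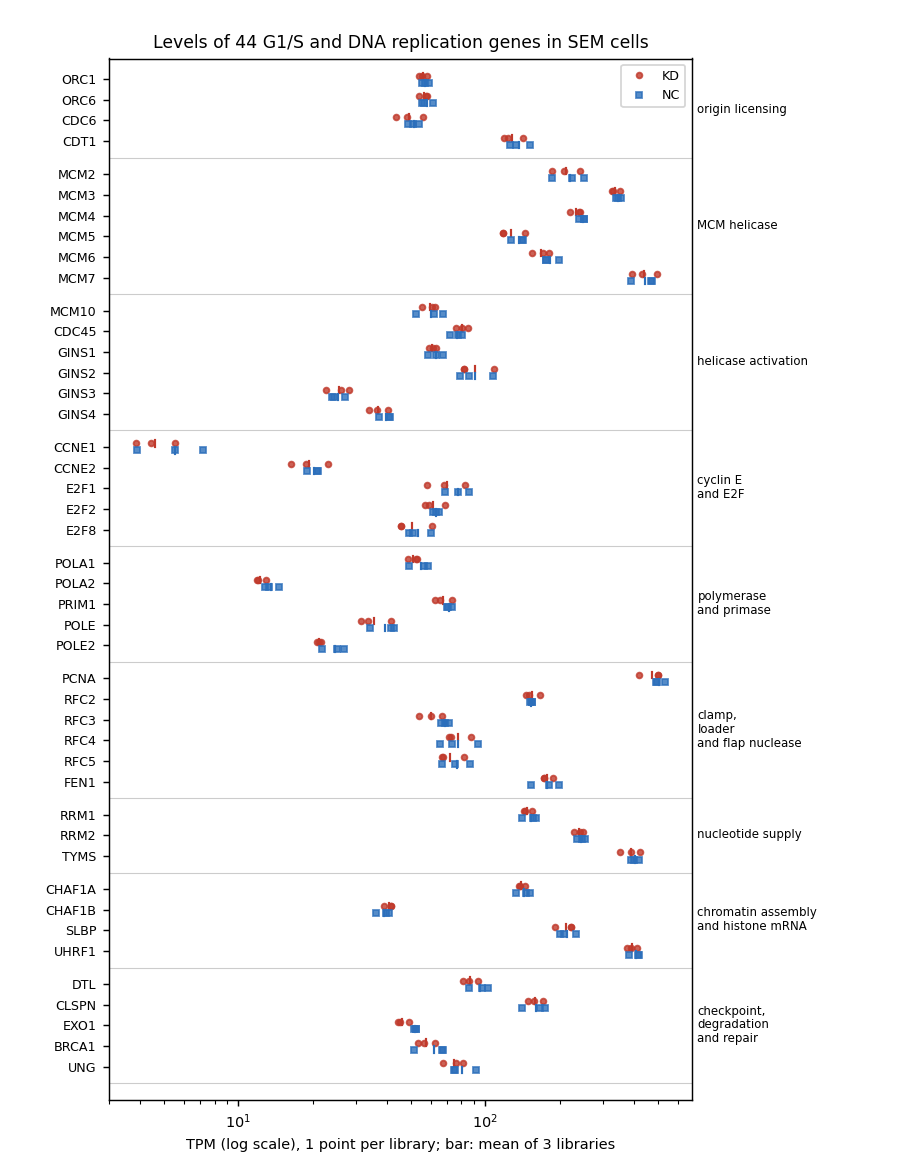
Level of each gene in TPM (x axis, log scale) by functional role (rows), with 1 point per library, KD above NC within a row, and a bar at the mean of 3 libraries. PCNA, MCM7 and UHRF1 lie at the high end and CCNE1 stands alone at the low end, with KD and NC points of the same gene close together.

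Subunits of one complex were not at one level. Among the 6 subunits of the MCM ring, means over all 6 libraries were 216 TPM for MCM2, 340 TPM for MCM3, 241 TPM for MCM4, 132 TPM for MCM5, 176 TPM for MCM6 and 441 TPM for MCM7. MCM7 was again the highest over the principal transcript, at 447 TPM, and MCM6 was then the lowest, at 132 TPM. For the small subunits of the clamp loader, RFC2 averaged 154 TPM, RFC3 64.5 TPM, RFC4 77.3 TPM and RFC5 74.2 TPM. The GINS subunits averaged 62.0 TPM for GINS1, 90.6 TPM for GINS2, 25.3 TPM for GINS3 and 38.2 TPM for GINS4. Over the principal transcript GINS3 averaged 38.9 TPM and GINS4 37.2 TPM, so which of these subunits is lowest depends on the length used. Of the histone chaperone CAF-1, the large subunit CHAF1A averaged 142 TPM and the middle subunit CHAF1B 39.7 TPM. In the GINS and CAF-1 complexes, the highest subunit was above the lowest in all 6 libraries, and likewise RFC2 was above the other 3 loader subunits.

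Between KD and NC the replication genes did not differ detectably. By group, edgeR's quasi-likelihood F test, adjusted by Benjamini-Hochberg over all tested genes, called 0 of the 44, on a background of 0% of all tested genes, and DESeq2 and limma-voom also called 0 members. None had an unadjusted p under 0.05 in that test, the smallest being 0.249, and 52 genes of the whole table did. With the replicate number as a block, called the paired fit below, 0 members passed, on a background of 0.171% (29 genes). In the paired fit 2 members had an unadjusted p under 0.05, CHAF1B and CDC45, and so did 841 of the 16929 tested genes. The TMM-scaled CPM of KD and NC overlapped for all 44, where 3.43% of all tested genes showed no overlap. On plain library totals 3 members did not overlap. The share of all tested genes was not computed on that scale, so the 3 cannot be set against the 3.43%.

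The bound on any difference depended on the fit. Log2 fold changes of KD over NC in the paired fit ran from -0.19 (CCNE1) to 0.13 (CHAF1B), with a median of 0.00 that equals the median of all tested genes to within 0.01. As many members were above 0 as below it, 22 each, and 6 were beyond 0.1 in either direction. For 43 members the paired 95% interval lay within 0.32 of 0 on the log2 scale, where 49.1% of all tested genes did, and 87.5% of the 9271 tested genes with a mean above 10 CPM. The exception was CCNE1, the member with the fewest counts. By group the intervals were wider, with 20 members within 0.32 of 0, beside 17.8% of all tested genes and 32.5% of those above 10 CPM. They reached down to -0.90 (CCNE1) and up to 0.54 (MCM7), with standard errors from 0.08 to 0.30 on the log2 scale. Summed over the 44 genes, the level was 7268, 8968 and 8652 CPM across KD replicates 1 to 3, and 7326, 8983 and 8477 CPM across NC replicates 1 to 3. Each KD sum lay close to the NC sum of its own replicate number, and the means were 8296 ± 904 CPM in KD and 8262 ± 849 CPM in NC (SD, n = 3 each). Leaving out single libraries in the fit by group moved the members' median from -0.08 (without KD replicate 2) to 0.10 (without KD replicate 1), with 0 members called in each. The signs of CDT1, MCM7, E2F1, CCNE1, POLE, RFC3 and RRM2 turned in at least 1 fit that left libraries out, and those of the other 5 members described in full did not. In bulk RNA, fewer cells in S phase and less RNA per cell could not be told apart.

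The even split of directions held where scaling factors were estimated, by TMM (22 of 44 higher in KD) or relative log expression (23 of 44). On plain library totals 33 of the 44 had a lower mean CPM in KD and on TPM 38 did, with member medians of -0.04 and -0.06 on the log2 scale, beside medians of -0.05 and -0.07 for all tested genes. Relative to the median of all tested genes on plain totals, 23 of the 44 were higher in KD. Directions by role below are those of the paired fit on TMM-scaled values, and differ on plain totals where stated.

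**Figure D3:**
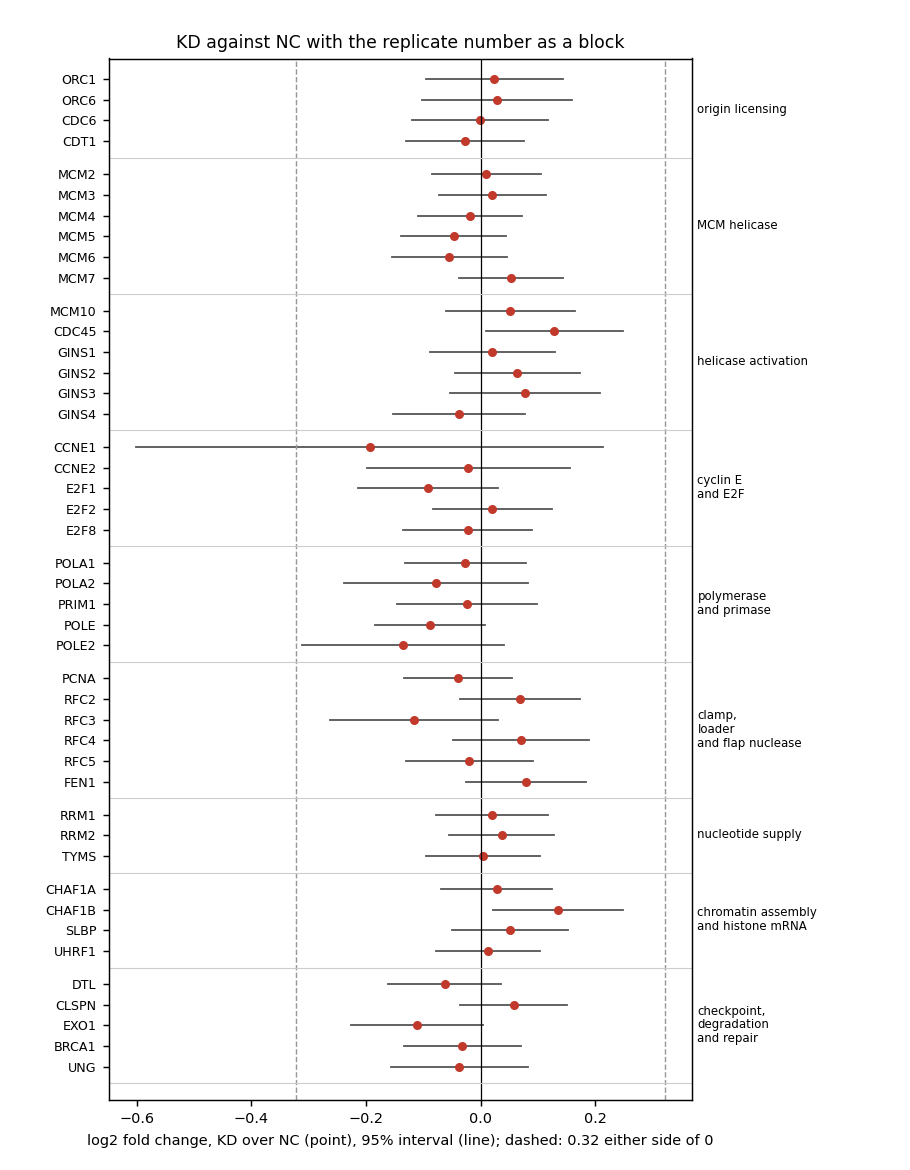
Log2 fold change of KD over NC for each gene from the paired fit (x axis, points) with its 95% interval (lines), by role (rows), and dashed lines at 0.32 on either side of 0. All intervals but that of CCNE1 stay between the dashed lines, and those of CHAF1B and CDC45 lie to the right of 0 before adjustment.

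Origin licensing genes were level between the groups: 2 of 4 were higher in KD and 2 lower (0 of 4 higher on plain totals), with a median paired log2 fold change of 0.01. The member with the smallest p, CDT1 (ENSG00000167513.9, chromosome 16, 88803213 to 88809258, plus strand, GRCh38), loads the MCM helicase. It had 130, 179 and 167 CPM across KD replicates 1 to 3, and 131, 176 and 179 CPM across NC replicates 1 to 3. Replicate 1 was low in both groups, and the groups overlapped. The paired log2 fold change was -0.03 (SE 0.05, 95% interval -0.13 to 0.08, edgeR quasi-likelihood adjusted p 0.999). ORC1 and ORC6, subunits of the origin recognition complex, had 0.02 and 0.03, and CDC6, the loader's ATPase, -0.00.

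Within the MCM ring, 3 subunits had higher and 3 lower paired estimates (1 higher on plain totals, MCM7), and the median was -0.00. MCM7 (ENSG00000166508.18, chromosome 7, 100092728 to 100101940, minus strand) had 565, 819 and 766 CPM across KD replicates 1 to 3, and 532, 822 and 725 CPM across NC replicates 1 to 3. Both replicate 1 libraries lay far below the other 4, which spanned both groups. Its paired log2 fold change was 0.05 (SE 0.04, 95% interval -0.04 to 0.14, edgeR quasi-likelihood adjusted p 0.999). The other 5 subunits ran from -0.05 (MCM6) to 0.02 (MCM3).

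Helicase activation factors had the highest median of the 9 roles, with 5 of 6 higher in KD (4 of 6 on plain totals) and a value of 0.06. CDC45 (ENSG00000093009.11, chromosome 22, 19479459 to 19520612, plus strand) joins MCM and GINS in the active helicase. It had 74.8, 91.2 and 87.6 CPM across KD replicates 1 to 3, and 64.3, 90.6 and 77.9 CPM across NC replicates 1 to 3. KD was above NC within each replicate number, by 0.22, 0.01 and 0.17 on the log2 scale, while the groups overlapped. Paired, the log2 fold change was 0.13 (SE 0.06, 95% interval 0.01 to 0.25, edgeR quasi-likelihood unadjusted p 0.0355, adjusted p 0.976), and without the block it was 0.12 (SE 0.15). MCM10, which helps to activate the helicase, had 0.05, and GINS1 to GINS4 had 0.02, 0.06, 0.08 and -0.04.

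Cyclin E and E2F genes, which drive the entry into S phase, were lower in KD for 4 of 5 (5 of 5 on plain totals), with a median of -0.02. E2F1 (ENSG00000101412.13, chromosome 20, 33675683 to 33686404, minus strand), an activator of S-phase genes, had 47.4, 78.5 and 68.9 CPM across KD replicates 1 to 3, and 53.7, 84.9 and 68.6 CPM across NC replicates 1 to 3. It was lowest in replicate 1 and highest in replicate 2 of either group, and the groups overlapped. This gave a paired log2 fold change of -0.09 (SE 0.06, 95% interval -0.21 to 0.03, edgeR quasi-likelihood adjusted p 0.999). CCNE1 (ENSG00000105173.14, chromosome 19, 29811898 to 29824308, plus strand) had 4.62, 3.69 and 4.57 CPM across KD replicates 1 to 3, and 5.72, 5.61 and 3.50 CPM across NC replicates 1 to 3. The 6 values rest on 80 to 129 counts each, NC replicate 3 was the lowest of all, and the groups overlapped. Its paired log2 fold change of -0.19 was the furthest from 0 of all members and the least precise (SE 0.19, 95% interval -0.60 to 0.21, edgeR quasi-likelihood adjusted p 0.999). CCNE2 had -0.02, the activator E2F2 0.02 and E2F8, a repressor that E2F1 itself turns on, -0.02.

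All 5 polymerase and primase genes had estimates below 0, on plain totals too, with a median of -0.08. POLE (ENSG00000177084.19, chromosome 12, 132623753 to 132687365, minus strand), the catalytic subunit of the leading-strand polymerase epsilon, had 171, 261 and 226 CPM across KD replicates 1 to 3, and 177, 279 and 243 CPM across NC replicates 1 to 3. KD was below NC within each replicate number, by differences far smaller than those between replicate 1 and the rest. In the paired fit its log2 fold change was -0.09 (SE 0.05, 95% interval -0.18 to 0.01, edgeR quasi-likelihood unadjusted p 0.0673, adjusted p 0.999), and by group it was 0.06 without KD replicate 1 and 0.07 without NC replicate 2. POLE2 (ENSG00000100479.14, chromosome 14, 49643555 to 49688422, minus strand), its accessory subunit, had 20.1, 24.0 and 25.3 CPM across KD replicates 1 to 3, and 24.7, 25.6 and 26.0 CPM across NC replicates 1 to 3. KD replicate 1 stood lowest, and KD replicate 3 lay among the NC values. The paired log2 fold change was -0.14 (SE 0.08, 95% interval -0.31 to 0.04, edgeR quasi-likelihood adjusted p 0.999). In polymerase alpha, the enzyme that starts new strands, the estimates were -0.03 for POLA1, -0.08 for POLA2 and -0.02 for the primase subunit PRIM1.

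Clamp, loader and flap nuclease genes split evenly, 3 higher and 3 lower in KD (also on plain totals), with a median of 0.02. RFC3 (ENSG00000133119.13, chromosome 13, 33818049 to 33966558, plus strand), a loader subunit, had 50.7, 72.5 and 70.4 CPM across KD replicates 1 to 3, and 63.9, 77.9 and 67.2 CPM across NC replicates 1 to 3. KD replicate 1 was the lowest, KD replicate 3 was above NC replicate 3, and the groups overlapped. Paired, the log2 fold change was -0.12 (SE 0.07, 95% interval -0.26 to 0.03, edgeR quasi-likelihood adjusted p 0.999). The other loader subunits did not share this sign throughout, with 0.07 for RFC2, 0.07 for RFC4 and -0.02 for RFC5. FEN1 (ENSG00000168496.4, chromosome 11, 61792637 to 61797244, plus strand), which cuts the flaps of Okazaki fragments, had 152, 162 and 173 CPM across KD replicates 1 to 3, and 154, 150 and 158 CPM across NC replicates 1 to 3. KD was higher in replicates 2 and 3 and not in replicate 1. This gave a paired log2 fold change of 0.08 (SE 0.05, 95% interval -0.03 to 0.18, edgeR quasi-likelihood adjusted p 0.999), and PCNA had -0.04.

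Nucleotide supply genes had estimates just above 0 for all 3 (0 of 3 on plain totals), with a median of 0.02. RRM2 (ENSG00000171848.16, chromosome 2, 10120698 to 10131419, plus strand), the small subunit of ribonucleotide reductase that limits its activity in S phase, had 421, 500 and 494 CPM across KD replicates 1 to 3, and 410, 497 and 473 CPM across NC replicates 1 to 3. Within each replicate number KD was slightly above NC, and the groups overlapped. In the paired fit its log2 fold change was 0.04 (SE 0.04, 95% interval -0.05 to 0.13, edgeR quasi-likelihood adjusted p 0.999). The large subunit RRM1 had 0.02 and the thymidylate synthase TYMS 0.00.

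Chromatin assembly and histone mRNA genes had estimates above 0 for all 4 (2 of 4 on plain totals, CHAF1B and SLBP), with a median of 0.04. CHAF1B (ENSG00000159259.8, chromosome 21, 36385378 to 36419015, plus strand), a subunit of the CAF-1 chaperone that puts histones on new DNA, had 69.6, 79.9 and 80.8 CPM across KD replicates 1 to 3, and 63.4, 73.0 and 73.4 CPM across NC replicates 1 to 3. KD was above NC by nearly the same amount within each replicate number, 0.14, 0.13 and 0.14 on the log2 scale, and the groups overlapped because KD replicate 1 lay below NC replicates 2 and 3. The paired log2 fold change was 0.13 (SE 0.05, 95% interval 0.02 to 0.25, edgeR quasi-likelihood unadjusted p 0.0220, adjusted p 0.888), the smallest p of all members, and without the block it was 0.13 (SE 0.11). CHAF1A, its partner, had 0.03, SLBP, which binds the end of histone messages, 0.05, and UHRF1 0.01.

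Checkpoint, degradation and repair genes were lower in KD for 4 of 5, on plain totals too, with a median of -0.04. EXO1 (ENSG00000174371.17, chromosome 1, 241847967 to 241895148, plus strand), an exonuclease of mismatch repair and strand resection, had 60.9, 76.4 and 74.5 CPM across KD replicates 1 to 3, and 67.7, 84.4 and 76.6 CPM across NC replicates 1 to 3. KD was below NC within each replicate number, and the groups overlapped through NC replicate 1. Paired, the log2 fold change was -0.11 (SE 0.05, 95% interval -0.23 to 0.00, edgeR quasi-likelihood unadjusted p 0.0588, adjusted p 0.999). DTL, which marks CDT1 for degradation in S phase, had -0.06, CLSPN, the adaptor of the replication checkpoint, 0.06, BRCA1 -0.03, and UNG, which removes uracil from DNA, -0.04.

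Within replicate numbers the direction of the genes was not stable. Of the 44, 17 were higher in KD in replicate 1, 19 in replicate 2 and 32 in replicate 3, with median log2 differences of -0.03, -0.01 and 0.04, beside medians of 0.00, -0.00 and 0.00 over all tested genes. Replicate 3 holds the KD library with the high share of records aligned to several places and with 6.79% of gene counts on mitochondrial ribosomal RNA, against 0.293% to 1.34% in the other 5 libraries. The part of that library in the median of replicate 3 was not tested. The same direction in all 3 replicate numbers was seen for 14 members, 7 higher and 7 lower in KD, on a background of 25.7% of all tested genes. Those higher throughout were CDC45, GINS3, E2F2, RFC2, RRM2, CHAF1B and CLSPN. Those lower throughout were MCM5, POLA2, POLE, POLE2, PCNA, DTL and EXO1, 3 of them in the polymerase role.

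**Figure D4:**
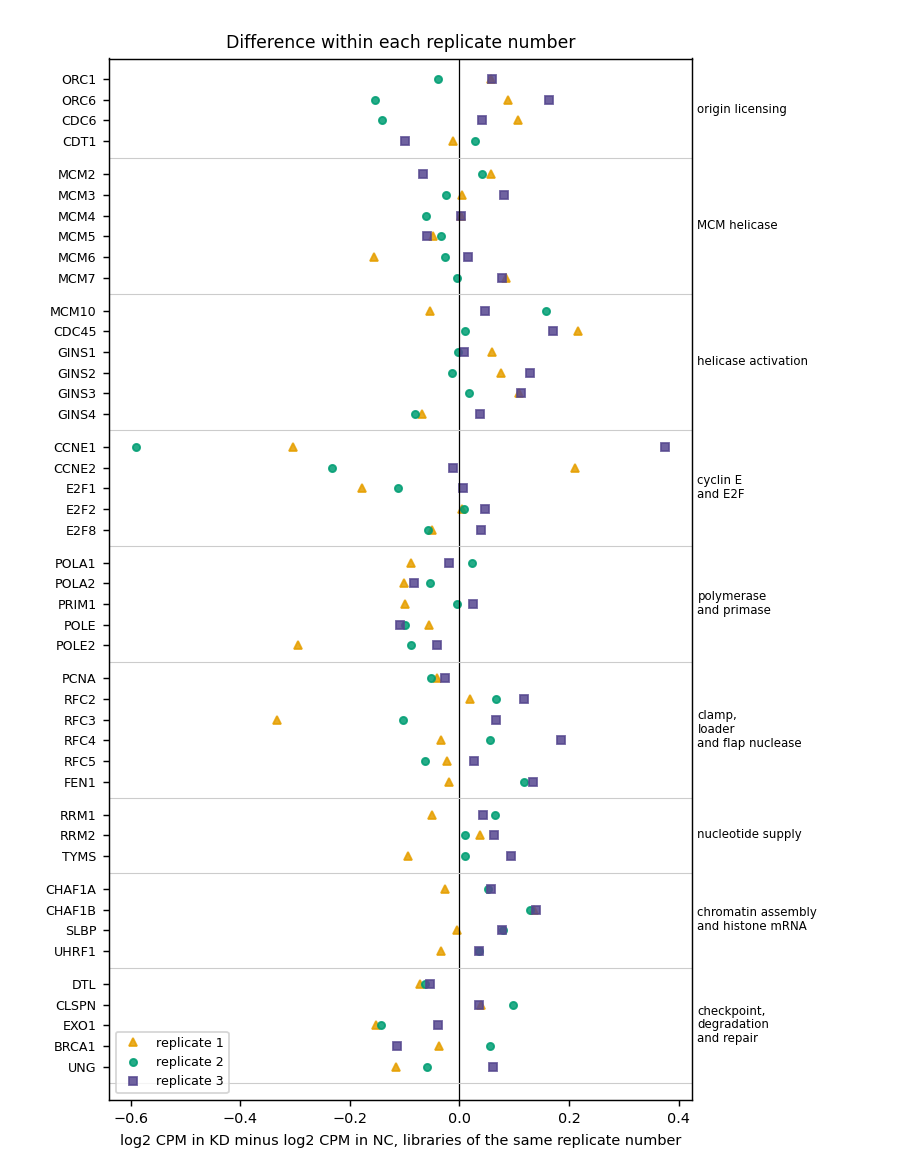
Log2 CPM in KD minus log2 CPM in NC for the libraries of each replicate number (x axis), by gene and role (rows), with triangles for replicate 1, circles for replicate 2 and squares for replicate 3. CHAF1B has its 3 symbols together near 0.13, the polymerase genes lie mostly to the left of 0, and CCNE1 spreads from -0.59 to 0.38.

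On TMM-scaled CPM, the replication genes differed more between replicate 1 and the other libraries than between KD and NC. Set against the mean of replicates 2 and 3 of its own group, replicate 1 was lower for 36 of the 44 in both groups, on a background of 41.1% of all tested genes and 64.6% of those with a mean above 10 CPM. The median shift was -0.25 in KD and -0.21 in NC on the log2 scale, beside 0.02 and 0.00 for all tested genes and -0.16 and -0.15 for those above 10 CPM. These shifts depend on the TMM factors, 1.11 (KD) and 1.13 (NC) in replicate 1 against 0.901 to 0.977 in the other libraries. As a share of all gene counts, the members made up 0.781%, 0.855% and 0.778% across KD replicates 1 to 3. Across NC replicates 1 to 3 they made up 0.799%, 0.854% and 0.827%. KD replicate 1 was thus not below KD replicate 3 on that scale, and the shifts were not recomputed on plain totals or TPM. E2F1 was shifted most in KD, by -0.63, and by -0.51 in NC. MCM2 was at -0.52 in KD and -0.59 in NC, POLE at -0.51 and -0.56, and MCM7 at -0.49 and -0.54. By role, the MCM ring (-0.35 in KD, -0.34 in NC) and the cyclin E and E2F genes (-0.34 and -0.32) were shifted most, and the checkpoint and repair genes (-0.10 and -0.07) and the clamp, loader and nuclease genes (-0.14 and -0.07) least. CCNE1 (0.17 in KD, 0.36 in NC), GINS2 (0.15 and 0.13), RFC4 (0.03 and 0.18) and RFC5 (0.03 and 0.04) were higher in replicate 1 of both groups. Across the 44 members, the shifts of KD and NC correlated at r = 0.837, a description of libraries that share a replicate number, and across all tested genes at 0.889. The replicate 1 libraries are those in which the smallest share of records was counted in genes, 33.8% in KD and 33.5% in NC against 47.8% to 60.2% in the rest, and the part of this in the shift was not tested.

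**Figure D5:**
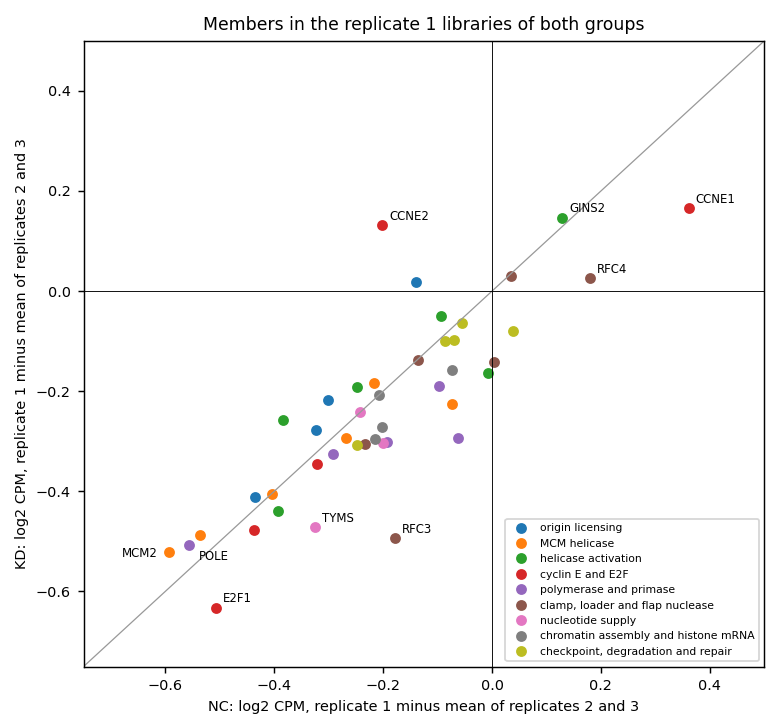
Log2 CPM in replicate 1 minus the mean of replicates 2 and 3, in KD (y axis) against NC (x axis), 1 point per gene coloured by role, with a diagonal of equality. Most points lie below 0 on both axes and near the diagonal, from E2F1 and MCM2 at the low end to CCNE1 at the high end.

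The variation of single members across all 6 libraries is given without a value for other genes beside it. The coefficient of variation of CPM ran from 2.58% for RFC5 to 21.3% for E2F1, with a median of 9.05%. Besides E2F1, E2F8 (20.2%), CCNE1 (20.1%), POLE (19.6%), MCM2 (18.8%) and MCM7 (18.0%) varied most.

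A further 73 genes of replication and the G1/S transition were taken from a list beside the members. No member of that list passed in the paired fit or by group. An unadjusted p under 0.05 was seen for 2 in the paired fit and 0 by group, beside 841 and 52 of the 16929 tested genes. In the paired fit 28 were higher in KD and 45 lower, with a median log2 fold change of -0.01. RBL2, a pocket protein that represses E2F targets, had 90.1, 82.4 and 89.4 CPM across KD replicates 1 to 3, and 107, 87.6 and 94.7 CPM across NC replicates 1 to 3. Its paired log2 fold change was -0.14 (SE 0.05, edgeR quasi-likelihood unadjusted p 0.0206, adjusted p 0.888), with KD lower in each replicate number. POLE3, a histone-fold subunit of polymerase epsilon, had 180, 225 and 241 CPM across KD replicates 1 to 3, and 166, 212 and 217 CPM across NC replicates 1 to 3. Its paired log2 fold change was 0.12 (SE 0.05, edgeR quasi-likelihood unadjusted p 0.0209, adjusted p 0.888), opposite in sign to POLE and POLE2. All 8 further origin and licensing genes, the other ORC subunits, GMNN, MCMBP, DBF4 and CDC7, had estimates below 0, from -0.12 to -0.01, each with an unadjusted p over 0.05, and DBF4 and CDC7 were higher in KD in 2 of 3 replicate numbers. Of the other groups in that list, 5 of 6 chromatin replication genes and 3 of 4 nucleotide supply genes were higher in KD, as were 11 of 25 replisome genes, 4 of 16 G1/S regulators and 5 of 14 checkpoint and repair genes.

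Exons of 16 members overlap a gene on the opposite strand and those of 6 overlap one on the same strand, and without a stated strand setting the reads cannot be assigned with certainty. Among the members described in full this concerns MCM7 (with AP4M1), FEN1 (with TMEM258 and FADS2), RRM2 and CHAF1B (with MORC3), and TYMS lies over TYMSOS and ENOSF1. Pseudogenes named as copies of members held at most 20 counts in any library. Records with several alignments are given apart from the genes, so these counts cannot show whether such copies took reads from members.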

How the data were processed

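Total RNA from SEM cells was sequenced in 6 libraries, 3 KD and 3 NC, grouped and numbered by their titles. Per the labels' protocols, libraries came from a total RNA kit with depletion of globin transcripts. The authors deposited raw counts for each Ensembl gene. The submitters' processing notes name hg38, DESeq2, HTSeq 0.11.1, STAR 2.7.10a and FastQC 0.11.8; annotation release, strand setting and handling of multiply aligned reads are not given in the sources. Each file ends in 5 summary lines that name no gene and stayed out of library sizes and tests, so that 33.5% to 60.2% of the records counted in genes. Symbols came from a gene name table that held 62639 of 62703 IDs, and coordinates, lengths and overlaps from GENCODE 29 (GRCh38), which held 58220.

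The main fit was edgeR 4.0.16 in R 4.3.3 (filterByExpr, TMM, robust quasi-likelihood F test, group only), with Benjamini-Hochberg adjusted p under 0.05 over all tested genes. CPM use TMM-normalised library sizes, log2 CPM a prior count of 2, and TPM the union of exons. No pair of same-group libraries agreed within sampling noise (chi-square of 22.5 to 90.6 per degree of freedom), and all 6 count as replicates. Library totals of 14750579 to 26694160 counts gave every member at least 80 counts in each library.

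The labels state no pairing. For the KD and NC libraries of replicate 1, 2 and 3, deviations from the group means correlated at 0.889, 0.619 and 0.605, all over the limit of 0.1, so the numbers were treated as pairs and the fit with the replicate number as a block is given beside the main one; other pairings of replicates 2 and 3 reached 0.590, which leaves replicate 1 as its main support. The biological coefficient of variation, a common value over all tested genes, was 0.0683 with the block and 0.372 without it, at the same depth. The parts of depth and of the spread between libraries in the precision by group were not tested.

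Members, roles, further gene lists and markers were chosen with earlier results of these data known, so no list is given a test. The members described in full are those with the smallest paired p of each role and the 3 largest paired differences in each direction. Alternatives were the block, DESeq2 1.42.0, limma-voom (limma 3.58.1), relative log expression scaling, no low-count filter, and leaving out single libraries or replicate numbers. Plain library totals, the principal-transcript length, the comparison of replicate 1 with the others and the limit of 0.32 on the log2 scale were added after seeing the data. Promoter sequences and windows are RefSeq's on GRCh38.p14.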

Additional observations from a re-analysis of the deposited data

Results flagged for a closer look

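In KD replicate 3, 31.5% of the records had several alignments, above the 17.3% of the highest NC library. The deposited file gives them in a summary line apart from the genes. In that library 32 of the 44 were above NC replicate 3, with a median log2 difference of 0.04. Without KD replicate 3 the median log2 fold change of the members by group was -0.05, beside 0.10 for all tested genes. Leaving out KD replicate 2 instead gave -0.08, beside 0.11 for all tested genes. The part of the records with several alignments in the members' values was not tested.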

How the results depend on the processing

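With the replicate block, the paired fit called 29 of all tested genes and 0 of the 44 members, while the fit by group called 0 and DESeq2 called 1; limma-voom, relative log expression scaling, no low-count filter and the 6 fits without 1 library called 0. Leaving out replicate 1, 2 or 3 of both groups gave 0 calls by group and 5 to 119 with the block. No member was called in any of the 17 alternative fits. Of the 73 further genes 1 was called in 1 of them: HELLS, a chromatin remodeller named after its values were seen, without replicate 2 in the paired fit (-0.25 on the log2 scale, adjusted p 0.0204 by edgeR). The members' median log2 fold change stayed within the spread between replicate numbers under the other tools, scalings and the filter. That spread was the SD of the members' medians in the 3 replicate numbers, 0.0357. The members' median was -0.0385 on plain library totals, just outside that spread, and -0.0569 on TPM without TMM factors, where the median of all tested genes shifted alike. It ran from -0.0826 to 0.0966 when a library or replicate number was left out, and without KD replicate 2, KD replicate 3, NC replicate 2 or NC replicate 3 the fits tested 31398 to 31605 genes and the median of all tested genes moved to 0.11, 0.10, -0.11 and -0.09. Among the 12 members described in full, 186 of 204 alternative estimates kept their sign. The 18 that turned all came from leaving libraries out, where log2 fold changes ran from -0.16 to 0.10 for CDT1, -0.28 to 0.11 for E2F1, -0.27 to 0.0738 for POLE, -0.23 to 0.0425 for RFC3, -0.11 to 0.20 for MCM7, -0.0434 to 0.12 for RRM2 and -0.46 to 0.0191 for CCNE1 (0.0191 without replicate 2 in the paired fit); without replicate 3 in the paired fit CDT1 was at 0.0136; the cause was not tested. CDC45, CHAF1B, EXO1, FEN1 and POLE2 kept theirs in all 17, but leaving out 1 library moved them widely: CDC45 from 0.00599 (without NC replicate 1) to 0.26 (without NC replicate 2), CHAF1B from 0.0691 (without KD replicate 3) to 0.21 (without KD replicate 1), EXO1 from -0.21 (without KD replicate 2) to -0.00926 (without KD replicate 1), FEN1 from 0.00604 (without KD replicate 3) to 0.13 (without NC replicate 3) and POLE2 from -0.23 (without KD replicate 3) to -0.0382 (without KD replicate 1). The median member was at 119 CPM, at 122 CPM without replicate 1, at 75.8 TPM over the union of exons and at 74.4 TPM over the principal transcript, which differ from CPM because they are divided by length. CCNE1 had the fewest counts of the members, and the part of depth in its wide interval was not tested.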
